A study of Mus musculus with 9 samples.

Results

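Peaks of open chromatin were examined at 8 genes whose products mark blood stem cells and their first descendants: Slamf1, Cd48, Cd34, Flt3, Kit, Procr, Fgd5 and Ly6a. A region was a merged set of overlapping peaks from any of the 9 libraries, and it belonged to the gene holding its midpoint, or else to the nearest end of a protein-coding gene within 100 kb. The 8 genes had 97 of the 117465 merged regions, and 76 of the 95786 regions that had a peak in 2 or more libraries. Cells were long-term haematopoietic stem cells (LT-HSCs, 5 libraries) and multipotent progenitors (MPPs, 4 libraries) sorted from bone marrow of C57BL/6 mice after pooling animals and removing lineage-positive cells. The wild-type (WT) libraries were LT-HSC WT 2 and 3 and MPP WT 1 and 2. The libraries lacking retinoid X receptors alpha and beta (RXRa/RXRb-KO, here KO) were LT-HSC KO 1, 2 and 4 and MPP KO 1 and 2. The sources used here do not give the deleting agent, the ages or the antibodies of the sort gates, so it is not known which of these markers defined the sorted cells. The labels do not say that libraries of a group came from separate pools, and the spread on which each p-value rests may then be technical only.

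LT-HSCs are rare, mostly resting cells that can rebuild the blood for life, and MPPs divide more and have lost that lasting capacity. In the adult mouse both carry the receptor KIT and the surface protein SCA-1. LT-HSCs are usually recognised as CD150-positive, CD48-negative, CD34-low and FLT3-negative, and EPCR and an Fgd5 reporter enrich for them. MPPs gain CD48, CD34 and, in the lymphoid-primed fraction, FLT3. A peak marks accessible DNA and does not measure the level of a transcript or protein.

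Peak lists were shorter in LT-HSCs, and this bears on every count. LT-HSC KO 1 held 22.75% of the analysed regions, KO 2 41.03%, KO 4 65.55%, WT 2 50.02% and WT 3 23.1%, against 78.11% to 84.67% in the MPP libraries. Presence was therefore also read in lists of equal length, the 22690 strongest peaks of each library by −log10 q, and a region with such a peak is called strong here. The −log10 q of a peak depends on the depth of its library, so its values show the order within 1 library and are not compared between libraries. LT-HSC KO 1 and KO 2 stood apart from the other LT-HSC libraries. Over the 13908 regions held by all 9 libraries, their rank scores correlated at 0.843 with each other and at 0.536 to 0.627 with KO 4, WT 2 and WT 3, which correlated at 0.772 to 0.873 among themselves. The MPP libraries correlated at 0.961 to 0.979. These correlations across regions describe the libraries, and the regions are not independent replicates.

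RefSeq promoter entries (GRCm38.p6, the assembly of mm10) matched 7 of the 8 genes, all but Ly6a. The bases before 4 start sites are shown: Slamf1, where only MPP libraries had a peak, and Cd34, Flt3 and Kit, where all 9 libraries had one. Each line gives the 250 bases before the start site, 5′ to 3′ on the strand of the gene, and capitals mark the match to a searched motif.
Slamf1 (chr1:171766882-171767131, plus strand): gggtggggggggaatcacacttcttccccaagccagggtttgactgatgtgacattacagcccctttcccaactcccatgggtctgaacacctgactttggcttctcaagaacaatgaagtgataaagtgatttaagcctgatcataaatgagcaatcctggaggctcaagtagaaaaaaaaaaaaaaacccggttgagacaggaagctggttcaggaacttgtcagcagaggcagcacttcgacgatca
Cd34 (chr1:194938571-194938820, plus strand): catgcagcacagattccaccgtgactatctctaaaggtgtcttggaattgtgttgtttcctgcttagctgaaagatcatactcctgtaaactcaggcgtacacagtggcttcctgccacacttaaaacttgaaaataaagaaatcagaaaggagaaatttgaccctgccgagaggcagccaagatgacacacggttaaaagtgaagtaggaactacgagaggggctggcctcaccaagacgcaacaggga
Flt3 (chr5:147400490-147400739, minus strand): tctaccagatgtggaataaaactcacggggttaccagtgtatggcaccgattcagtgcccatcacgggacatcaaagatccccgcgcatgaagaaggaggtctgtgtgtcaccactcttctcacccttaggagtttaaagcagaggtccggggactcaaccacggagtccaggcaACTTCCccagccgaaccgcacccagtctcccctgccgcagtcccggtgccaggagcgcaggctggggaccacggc
Kit (chr5:75574737-75574986, plus strand): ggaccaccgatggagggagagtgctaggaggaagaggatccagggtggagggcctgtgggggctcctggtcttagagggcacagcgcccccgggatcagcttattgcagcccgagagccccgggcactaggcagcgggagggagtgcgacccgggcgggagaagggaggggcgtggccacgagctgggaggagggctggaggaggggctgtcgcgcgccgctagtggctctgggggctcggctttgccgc

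At the start site of Slamf1, a peak overlapped the window from 250 bases before to 50 after it in 3 MPP libraries and in none of the 5 LT-HSC libraries. Such a pattern, no LT-HSC and at least 3 MPP libraries, occurred in 2.55% of 20085 promoter windows of protein-coding genes. The Slamf1 peaks were weak, with −log10 q of 8.3 in MPP KO 2, 7.5 in WT 1 and 6.2 in WT 2. Their region was strong in no library, and its presence did not pass between cell types (Fisher's exact p = 0.0476, adjusted p = 0.0786). The windows of Cd34, Flt3 and Kit were held by all 9 libraries, as were 34.2% of all windows. The Cd48 window was held by all 4 MPP libraries and by LT-HSC KO 4 alone among LT-HSCs. The Procr window was held by all 4 MPP libraries and by LT-HSC KO 4 and WT 2, and the Fgd5 window by no library, as were 38.3% of all windows. Just beyond that window, a region with its midpoint 0.74 kb downstream of the Fgd5 start site (91979383 to 91980036) did have peaks. All 4 MPP libraries and LT-HSC KO 2, KO 4 and WT 2 held it, and it was strong in none. GC content of the 250 bases was 47.2% for Slamf1, 46.0% for Cd48 and 46.4% for Cd34, below the median of 56.0% over all promoters, and 59.2% for Flt3, 61.6% for Procr, 70.8% for Kit and 71.6% for Fgd5. Short motifs were searched on both strands, and no 2 matches overlapped. The ETS core GGAAGT was found in Flt3 (20.5% of all promoters), the RUNX core TGTGGT in Cd48 (12.2%), and the E-box CAGCTG (12.2%) and the nuclear receptor half-site AGGTCA (12.9%) in Procr. GATAAG (6.24%) and CACGTG (6.69%) were found in none of the 7, and a match describes letters only.

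Slamf1 encodes CD150, a homophilic receptor of the SLAM family and the marker most used to purify LT-HSCs. The gene (27218, chromosome 1, 171767131 to 171801184, mm10) had 10 regions, 7 of them in 2 or more libraries. A region inside the gene, 6.3 kb downstream of the start site (171773133 to 171773731), had a peak in all 5 LT-HSC libraries and in no MPP library. Its −log10 q was 5.3 in KO 1, 10.5 in KO 2, 102 in KO 4, 33.3 in WT 2 and 17.7 in WT 3, and it was strong in each of these libraries. In KO 1, whose list has 22690 peaks, every peak is strong by definition, and in WT 3, with 22878, nearly every one. Fisher's exact test gave p = 0.00794 and an adjusted p of 0.0245 over all 52020 regions tested. The adjustment pooled both directions, and 31.9% of regions tested were called for MPPs. The 0.0245 is therefore not an error rate of LT-HSC calls alone. This Slamf1 region was the 1 of 45 tested regions of the 8 genes called for LT-HSCs, and 0.442% of all regions tested were called in that direction. In lists of equal length it was again called (adjusted p = 0.0248, Fisher's exact test), where 10.9% of 13515 regions were called for LT-HSCs and 21.1% for MPPs.

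Other regions of Slamf1 showed smaller contrasts. One at −5.01 kb from the start site, where a negative distance lies upstream (171761766 to 171762468), had a peak in 8 libraries and was strong in 4 of 5 LT-HSC and 0 of 4 MPP libraries (Fisher's exact p = 0.0476 in lists of equal length, adjusted p = 0.0825). The exception was LT-HSC WT 3, which had no peak there. A region 14.76 kb beyond the gene (171815724 to 171816173) was held by all 9 libraries. Its rank percentile among the shared regions, where 100 is the strongest, ran from 18.8 (KO 4) to 31.0 (WT 3) in LT-HSCs, with 28.1 in KO 1, 22.6 in KO 2 and 21.6 in WT 2, and was 24.1 and 17.4 in MPP KO and 23.7 and 17.3 in MPP WT. These values overlapped between cell types, and the limma difference of normal scores was 0.14 ± 0.17 (SE, adjusted p = 0.587). Conversely, 4 MPP and 1 LT-HSC libraries held a weaker region 18.95 kb downstream of the start site (Fisher's exact p = 0.0476, adjusted p = 0.0786). Thus 3 regions of Slamf1 were strong in LT-HSC KO 1, KO 2, KO 4 and WT 2, and 2 in WT 3, against 1, 1, 1 and 0 in MPP KO 1, KO 2, WT 1 and WT 2.

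Cd48 lies next to Slamf1 on chromosome 1 and encodes a ligand of the receptor CD244 that appears on the cell surface as stem cells differentiate. The gene (12506, 171681245 to 171705258) had 8 regions in 2 or more libraries. LT-HSC KO 1 and KO 2 held 0 of them, KO 4 held 4, WT 2 held 2 and WT 3 held 1, while the MPP libraries held 7, 7, 7 and 6. The cell types did not overlap, and neither did they in the shares held over all analysed regions. At −8.95, −4.08 and −0.81 kb from the start site, 3 regions were present in all 4 MPP and 0 of 5 LT-HSC libraries (Fisher's exact p = 0.00794, adjusted p = 0.0245 each). The last, 171681035 to 171681337, had −log10 q of 14.0, 23.1, 27.0 and 27.2 in MPP KO 1, KO 2, WT 1 and WT 2. Its midpoint lay 0.06 kb outside the outermost annotated gene end, which the region itself reached across. None of the 3 was strong in any library. They are 37.5% of the regions of Cd48, and 17.3% of all analysed regions were present this way.

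Within the gene, the region over the start site (171681623 to 171682367) and one 5.57 kb downstream were each held by 4 MPP libraries and by LT-HSC KO 4 (Fisher's exact p = 0.0476, adjusted p = 0.0786). The region 17.2 kb downstream (171699002 to 171699382) was strong in all 4 MPP libraries and, among LT-HSCs, in WT 3 alone (Fisher's exact p = 0.0476 in lists of equal length, adjusted p = 0.0825). A region 7.4 kb downstream had peaks in LT-HSC KO 4 and WT 2 and in no MPP library. The map of peaks at Slamf1, Cd48, Cd34 and Flt3 shows these opposite patterns side by side.

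**Figure D1:**
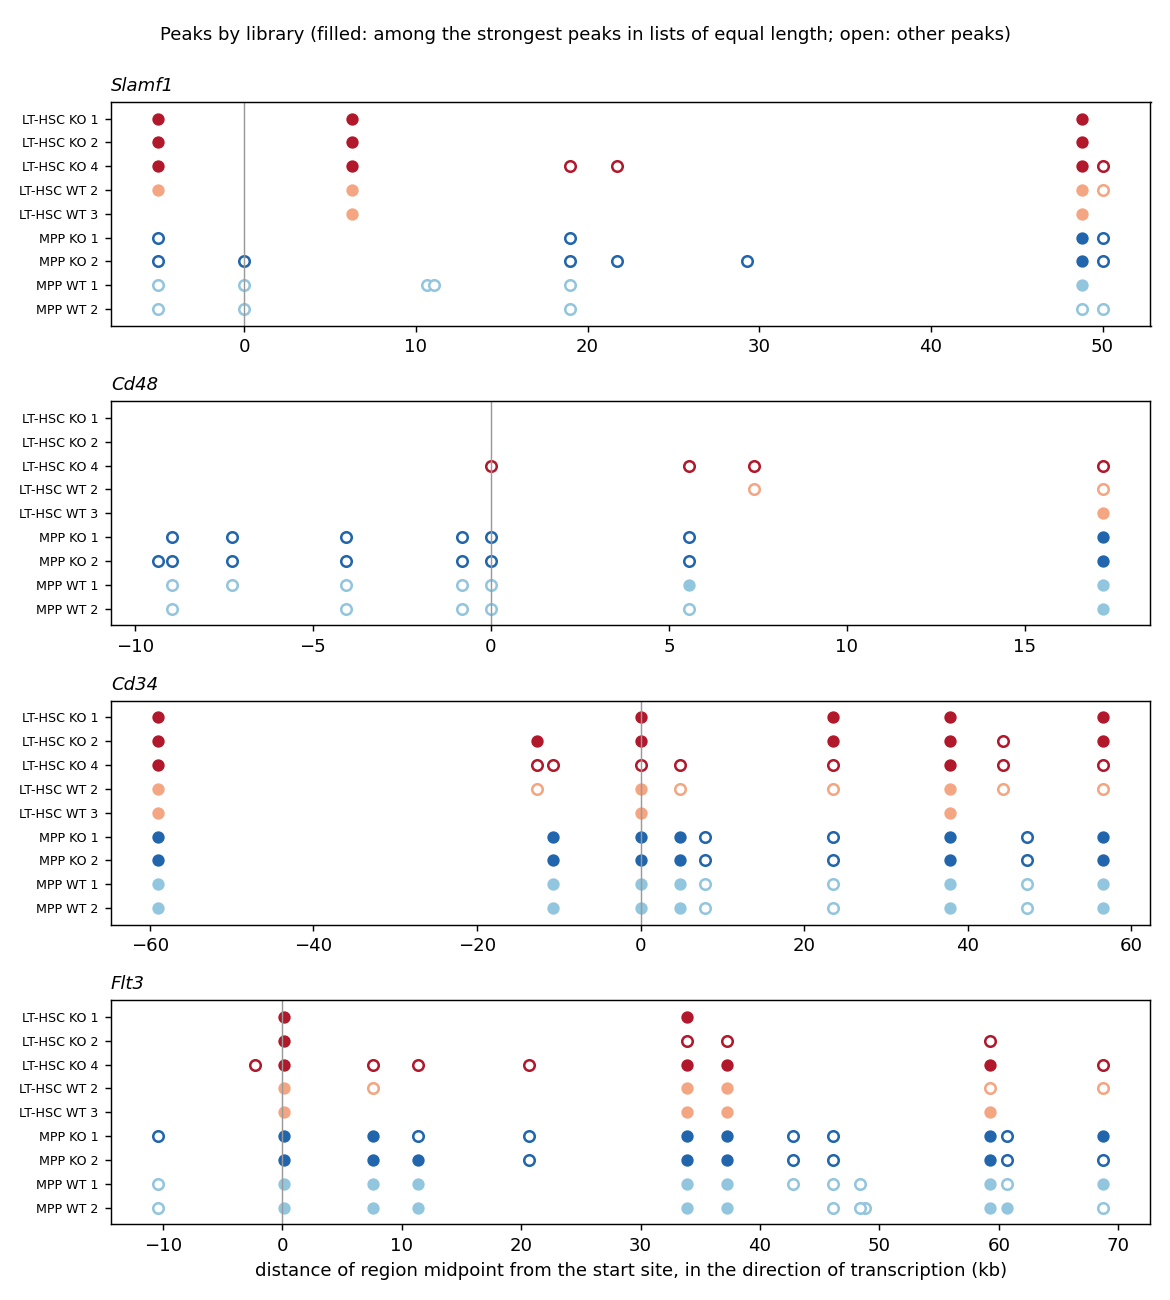
Peaks at Slamf1, Cd48, Cd34 and Flt3, by distance of the region from the start site (x axis, kb, positive in the direction of transcription) and by library (y axis). Filled points are among the 22690 strongest peaks of the library and open points are its other peaks. The Slamf1 region at 6.3 kb is filled in all 5 LT-HSC libraries and absent from the MPP libraries, and the Cd48 regions upstream of the start site appear in MPP libraries only.

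Cd34 encodes a sialomucin that is low on adult mouse LT-HSCs and present on most MPPs. The gene (12490, chromosome 1, 194938821 to 194961292) had 11 regions, and each MPP library held the same number of them, 9. Among LT-HSCs, KO 1 held 5, KO 2 7, KO 4 9, WT 2 8 and WT 3 3. At 7.82 and 47.19 kb, 2 regions were present in all 4 MPP and 0 of 5 LT-HSC libraries (Fisher's exact p = 0.00794, adjusted p = 0.0245 each). These make 18.2% of the Cd34 regions, near the 17.3% of all analysed regions. In the other direction, regions at −12.65 and 44.35 kb were each held by LT-HSC KO 2, KO 4 and WT 2 and by no MPP library, which did not pass the test (Fisher's exact p = 0.167, adjusted p = 0.202).

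Other Cd34 regions differed in whether they were among the strongest peaks. A region at −10.71 kb (194927835 to 194928381) had a peak in all 4 MPP libraries and, among LT-HSCs, in KO 4 alone. One 4.86 kb inside the gene (194943433 to 194943926) had one in all 4 MPP libraries and in LT-HSC KO 4 and WT 2. Each was strong in 4 of 4 MPP and 0 of 5 LT-HSC libraries (Fisher's exact p = 0.00794 in lists of equal length, adjusted p = 0.0248). Both had some LT-HSC peaks, so neither was called in the full lists. The region over the start site (194938653 to 194939102) was held by all 9 libraries at rank percentiles of 36.5 (KO 1), 48.2 (KO 2), 6.7 (KO 4), 8.7 (WT 2) and 4.7 (WT 3) in LT-HSCs, 53.1 and 40.8 in MPP KO, and 42.4 and 33.3 in MPP WT. KO 1 and KO 2 thus lay within the MPP range and the other 3 LT-HSC libraries below it. The limma difference between cell types was −0.88 ± 0.29 normal score units (SE, adjusted p = 0.0481), and ranking by fold enrichment gave −0.35 (adjusted p = 0.359). On percentile ranks the limma adjusted p was 0.0724. The limma adjusted p was 0.0627 without LT-HSC KO 1, 0.0962 without WT 2, 0.163 without WT 3, and 0.103 to 0.159 without 1 of the MPP libraries.

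Flt3 encodes the receptor tyrosine kinase for FLT3 ligand, whose presence marks lymphoid-primed MPPs. The gene (14255, chromosome 5, minus strand, 147330741 to 147400489) had 13 regions in 2 or more libraries. Of these the 5 LT-HSC libraries, in the order KO 1, 2 and 4 and WT 2 and 3, had 2, 4, 8, 6 and 4, and the MPP libraries 12, 11, 12 and 11. Among the strongest peaks the counts were 2, 1, 4, 3 and 4 in LT-HSCs and 6, 6, 7 and 7 in MPPs. The cell types did not overlap in either count, and 12 of the 13 regions lay inside the gene. Shares held over all analysed regions did not overlap either (at most 65.55% in LT-HSCs and at least 78.11% in MPPs). The mean number of strong regions was 2.8 ± 1.3 in LT-HSCs (SD, n = 5) and 6.5 ± 0.58 in MPPs (SD, n = 4). The difference of −3.70 had an exact permutation p of 0.00794, the smallest this design allows, and an adjusted p of 0.0823 over 12853 genes, so it did not pass. That smallest p, with MPPs higher, was reached by 6.16% of these genes.

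At 60.7 and 46.08 kb, 2 Flt3 regions were present in all 4 MPP and 0 of 5 LT-HSC libraries (Fisher's exact p = 0.00794, adjusted p = 0.0245 each). That is 15.4% of the Flt3 regions, near the 17.3% of all analysed regions. A region 7.57 kb downstream (147392644 to 147393203) was strong in all 4 MPP and 0 of 5 LT-HSC libraries (Fisher's exact p = 0.00794 in lists of equal length, adjusted p = 0.0248). The region over the start site (147400017 to 147400727) was the strongest of the gene in all 9 libraries. Its rank percentiles were 62.2 (KO 1), 61.8 (KO 2), 74.0 (KO 4), 81.3 (WT 2) and 74.9 (WT 3) in LT-HSCs, 90.6 and 89.8 in MPP KO, and 84.9 and 88.8 in MPP WT. The cell types did not overlap, as at 16.1% of the 13908 shared regions with MPPs higher. The limma difference was −0.61 ± 0.17 (SE, adjusted p = 0.0243). A region 33.92 kb downstream (147366281 to 147366856) ranked at 3.1 to 38.1 in LT-HSCs and at 49.2 to 68.8 in MPPs, a difference of −1.27 ± 0.32 (SE, limma adjusted p = 0.0166). Ranking by fold enrichment gave a difference of 0.21 for the start site region (limma adjusted p = 0.485) and −0.65 for the other (adjusted p = 0.130), so these 2 calls rest on ranking by q. The limma adjusted p was also 0.0806 to 0.123 and 0.0549 to 0.0645, respectively, without 1 of the MPP libraries, and 0.0815 and 0.0701 without LT-HSC WT 3.

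Kit encodes the receptor for stem cell factor, which both cell types need and by which both are sorted in most schemes. The gene (16590, chromosome 5, 75574987 to 75656722) had 31 regions, 20 of them in 2 or more libraries. Of the 20, LT-HSC KO 1 held 3, KO 2 5, KO 4 12, WT 2 10 and WT 3 6, and the MPP libraries 14, 17, 16 and 16. At −47.8, 29.45, 65.89 and 96.47 kb, 4 regions were present in all 4 MPP and 0 of 5 LT-HSC libraries (Fisher's exact p = 0.00794, adjusted p = 0.0245 each). They are 20% of the Kit regions, near the 17.3% of all analysed regions. The last of these (75671092 to 75671814), 14.73 kb beyond the gene, was strong in MPP WT 1 and WT 2 only.

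In lists of equal length the balance at Kit was different. LT-HSC KO 4, WT 2 and WT 3 each had 6 strong regions, LT-HSC KO 1 and KO 2 had 3, and the MPP libraries had 3, 4, 4 and 4. The cell types overlapped and the exact permutation p was 0.262 (difference 1.05, adjusted p = 0.681). Regions 7.22 kb downstream of the start site (75581889 to 75582524) and 23.36 kb beyond the gene (75679910 to 75680265) were strong in LT-HSC KO 4, WT 2 and WT 3 and in no MPP library (Fisher's exact p = 0.167 in lists of equal length, adjusted p = 0.206). The strongest Kit region in all 9 libraries lay 74.18 kb beyond the gene (75730509 to 75731292). Its rank percentile was 59.8 and 62.4 in LT-HSC KO 1 and KO 2, 92.5, 89.2 and 87.6 in LT-HSC KO 4, WT 2 and WT 3, and 89.5 to 93.7 in MPPs. With all 9 libraries, no Kit region passed the rank test between cell types (differences of −0.57, 0.10 and −0.44, limma adjusted p of 0.160, 0.791 and 0.227).

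Procr encodes the endothelial protein C receptor, EPCR, a surface marker of the most potent stem cells. The gene (19124, chromosome 2, 155751125 to 155755478) had 6 regions in 2 or more libraries, of which LT-HSC KO 4, WT 2 and MPP KO 1 held all 6, the other MPP libraries 5 each, LT-HSC WT 3 held 3, KO 2 held 2 and KO 1 held 1. No region was called for either cell type. A region at −8.8 kb (155742209 to 155742617) was strong in LT-HSC KO 4, WT 2 and WT 3, with −log10 q of 63.1, 18 and 7.9, and had no other peak but one of 8.2 in MPP KO 1 (Fisher's exact p = 0.167 in lists of equal length, adjusted p = 0.206). Its neighbour at −7.96 kb (155742846 to 155743666) was held by all 9 libraries. Rank percentiles there were 9.9 (KO 1), 13.1 (KO 2), 72.1 (KO 4), 76.7 (WT 2) and 65.9 (WT 3) in LT-HSCs, 48.8 and 51.7 in MPP KO, and 34.5 and 40.8 in MPP WT. LT-HSC libraries thus lay on both sides of the MPP range, and the mean difference was 0.14 ± 0.36 (SE, limma adjusted p = 0.804). It was 0.7 without LT-HSC KO 1 and KO 2, where KO 4 was the only LT-HSC KO library left.

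Fgd5 encodes a guanine nucleotide exchange factor that acts inside the cell, and its promoter drives a widely used stem cell reporter. The gene (232237, chromosome 6, 91978827 to 92076005) had 10 regions in 2 or more libraries. A region at −6.57 kb (91972032 to 91972757) was held by all 9 libraries and ranked at 59.9 (KO 1), 41.8 (KO 2), 87.6 (KO 4), 80.0 (WT 2) and 74.3 (WT 3) in LT-HSCs, 36.6 and 49.2 in MPP KO, and 23.2 and 16.7 in MPP WT. Every LT-HSC library except KO 2 ranked it above every MPP library. The limma difference was 1.09 ± 0.27 (SE, adjusted p = 0.0152), and the adjusted p was 0.063 without LT-HSC WT 2, 0.0633 without WT 3, 0.0721 without MPP KO 1 and 0.0708 without MPP WT 2. Between it and the gene, a region at −3.12 kb (91975688 to 91976002) was present in all 4 MPP and 0 of 5 LT-HSC libraries (Fisher's exact p = 0.00794, adjusted p = 0.0245). That region was strong in no library, and 17.3% of all analysed regions were present this way. Rank among shared regions and presence in lists of unequal length are unlike measures, so the 2 neighbours are not set against each other. Fgd5 had 2 to 3 strong regions in 4 LT-HSC libraries and 1 in KO 1, and 3 in each MPP library except WT 2, which had 1 (exact permutation p = 0.444, adjusted p = 0.860).

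**Figure D2:**
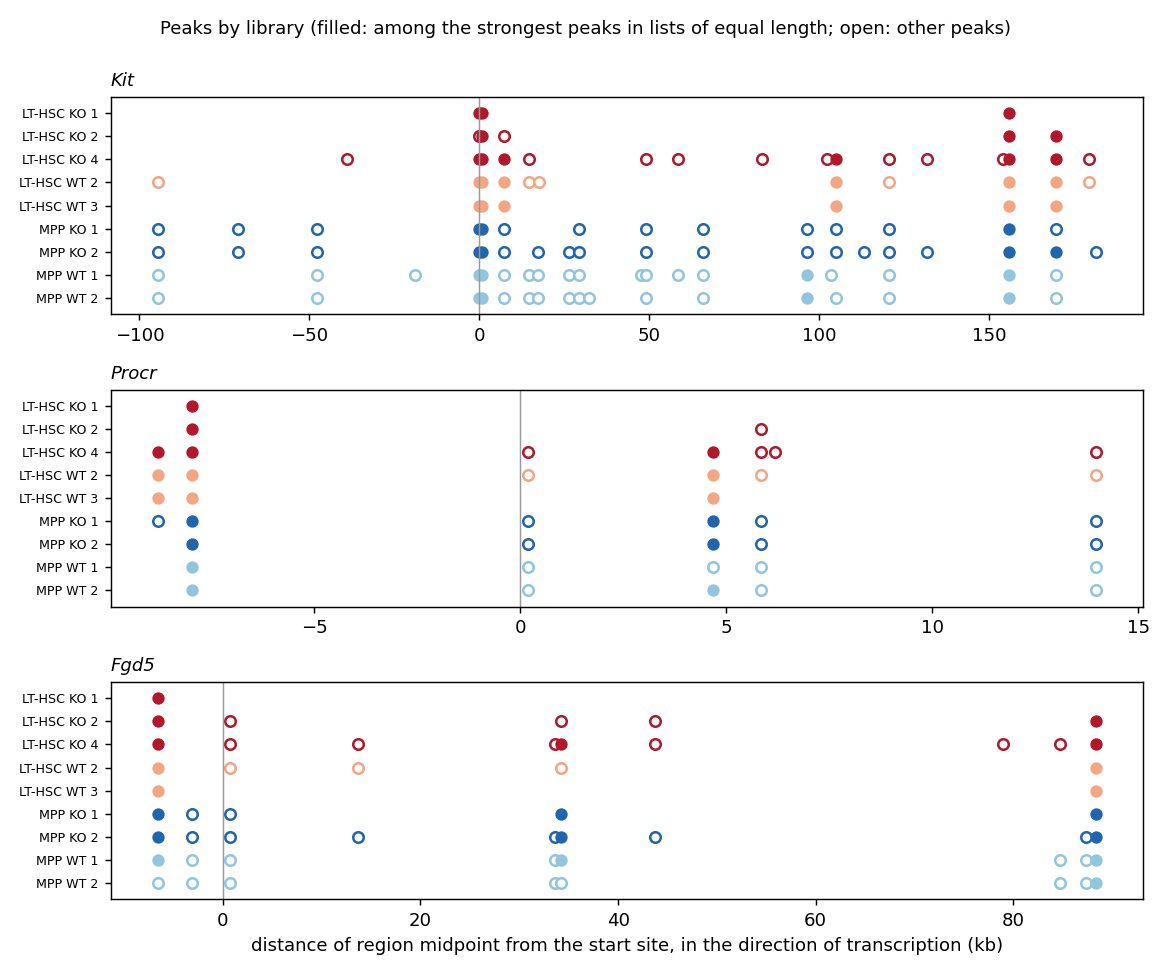
Peaks at Kit, Procr and Fgd5, by distance of the region from the start site (x axis, kb, positive in the direction of transcription) and by library (y axis). Filled points are among the 22690 strongest peaks of the library and open points are its other peaks. The Kit region at 105.1 kb and the Procr region at −8.8 kb are filled in LT-HSC KO 4, WT 2 and WT 3 only.

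Ly6a encodes SCA-1, a small lipid-anchored surface protein that defines the stem and progenitor compartment in C57BL/6 mice. The gene (110454, chromosome 15, 74994877 to 74998031) had 3 regions, none inside it, and 1 of them in 2 or more libraries. That region, 21.61 kb from the gene (75019403 to 75019888), was held by LT-HSC KO 2, KO 4 and WT 2 and by MPP KO 1, KO 2 and WT 1 at −log10 q of 4.5 to 9.9, and was strong in no library (Fisher's exact p = 1). The other 2 were single peaks, 0.13 kb from the gene in LT-HSC KO 4 and 1.95 kb from it in MPP KO 2. Ly6a shares much of its sequence with neighbouring Ly6 genes, and the sources used here do not say how reads matching several genes were treated.

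Across the 8 genes, the share of regions held followed the length of the lists. LT-HSC KO 1 held 19.7% of the 76 regions, KO 2 35.5%, KO 4 71.1%, WT 2 55.3% and WT 3 27.6%, and the MPP libraries 76.3% to 85.5%. These shares lay within 6 percentage points of those of all analysed regions. Of the 45 regions tested between cell types, 12 were called for MPPs (31.9% of all 52020 regions tested) and 1 for LT-HSCs. The 12 are 15.8% of the 76 regions, against 17.3% among all regions, so the MPP count as a whole is near the background. In lists of equal length 15 regions could be tested, with 3 called for MPPs and 1 for LT-HSCs, where 21.1% and 10.9% of all regions tested were called. In the plot of shares held, cell types overlap at Slamf1, Cd34, Procr and Fgd5 and are separate at Cd48, Flt3 and Kit, as they are over all regions.

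**Figure D3:**
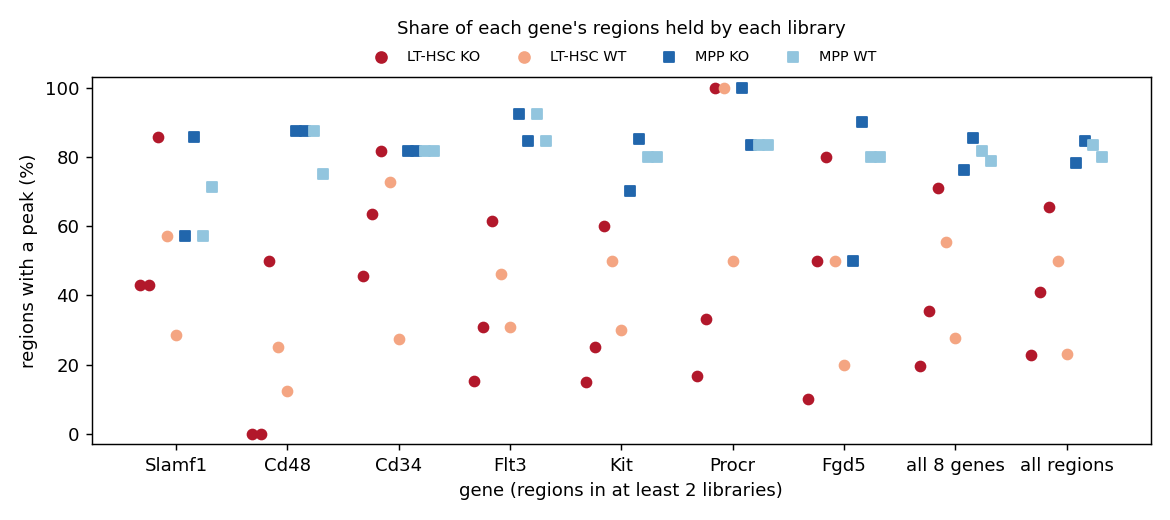
Share of the regions of each gene that had a peak in each library (y axis, percent; circles LT-HSC, squares MPP; colours give genotype), with the same share over the 8 genes and over all 95786 analysed regions. MPP libraries lie between 50% and 100% for every gene shown, LT-HSC libraries between 0% (Cd48) and 100% (Procr). Ly6a, with 1 region, is not drawn.

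Lists of equal length showed the genes in another order. The mean number of strong regions was higher in LT-HSCs for Slamf1 (2.8 ± 0.45 against 0.75 ± 0.5), Kit (4.8 ± 1.64 against 3.75 ± 0.5) and Procr (2.2 ± 1.1 against 1.75 ± 0.5; SD, n = 5 and 4). It was higher in MPPs for Flt3, Cd34 (6.0 ± 0 against 3.8 ± 1.64), Cd48 (1.25 ± 0.5 against 0.2 ± 0.45) and Fgd5 (2.5 ± 1.0 against 2.0 ± 0.71). Exact permutation p was 0.00794 for Slamf1 and Flt3, 0.0397 for Cd48, 0.0873 for Cd34, 0.262 for Kit, 0.444 for Fgd5 and 0.714 for Procr. After adjustment over 12853 genes no member passed (0.0823 for Slamf1 and Flt3, exact permutation), nor did any other gene (0% called), while 22.8% of genes had an unadjusted p under 0.05. The libraries of the 2 cell types did not overlap for Slamf1 and Flt3. Without LT-HSC KO 1 and KO 2, the difference between cell types was 2.25 for Kit in place of 1.05, 1.25 for Procr in place of 0.45 and −3.33 for Cd34 in place of −2.20. It was smaller for Slamf1 (1.67 in place of 2.05), Flt3 (−2.83 in place of −3.70), Cd48 (−0.92 in place of −1.05) and Fgd5 (−0.17 in place of −0.50), and no gene passed (exact permutation, adjusted p of 0.155 or more). The share of genes at the smallest possible p was 3.49% with LT-HSCs higher, as Slamf1, and 6.16% with MPPs higher, as Flt3.

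**Figure D4:**
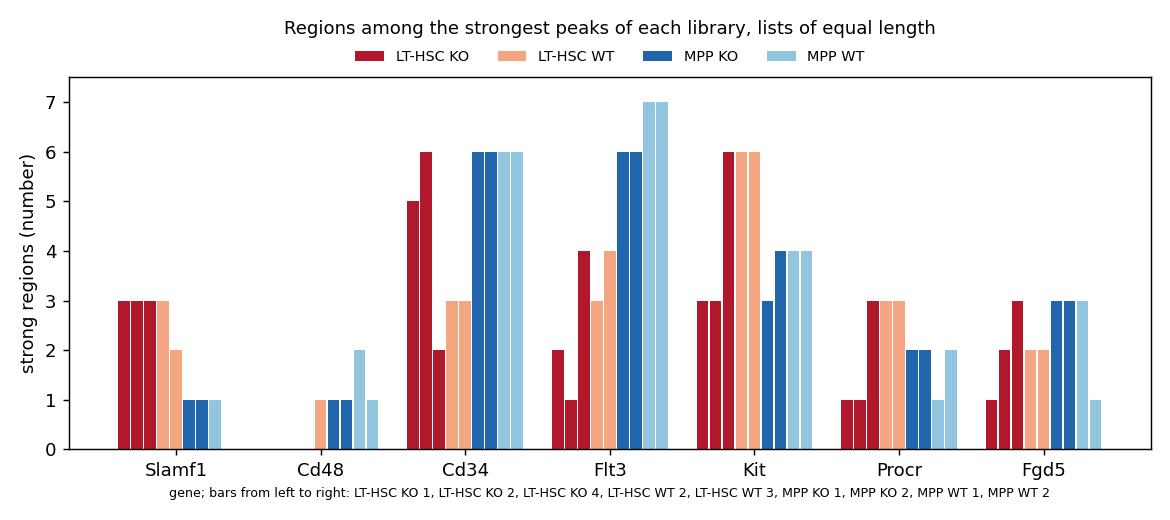
Number of regions of each gene among the 22690 strongest peaks of each library (y axis, bars from 0; one bar per library in the order given under the axis, coloured by cell type and genotype). Slamf1 bars are at 2 to 3 in LT-HSCs and 0 to 1 in MPPs, and Flt3 bars at 1 to 4 and 6 to 7.

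Of the 11 regions of these genes held by all 9 libraries, limma called 1 higher in LT-HSCs (Fgd5, where 15% of the 13908 shared regions were called) and 3 higher in MPPs (Cd34 and 2 at Flt3, where 14.2% were called). The calls were few and moved with the libraries: without LT-HSC KO 1 and KO 2 together, an alternative chosen after their correlations were seen, 5 regions were called for LT-HSCs and 6 for MPPs among the 18 at these genes that the remaining 7 libraries shared, while 47.9% of all 20517 regions so shared were called, and the Flt3 region at 33.92 kb was not among them (limma adjusted p = 0.0734). The plot of rank percentiles shows that the spread among LT-HSC libraries was the wider one at all 11 regions.

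**Figure D5:**
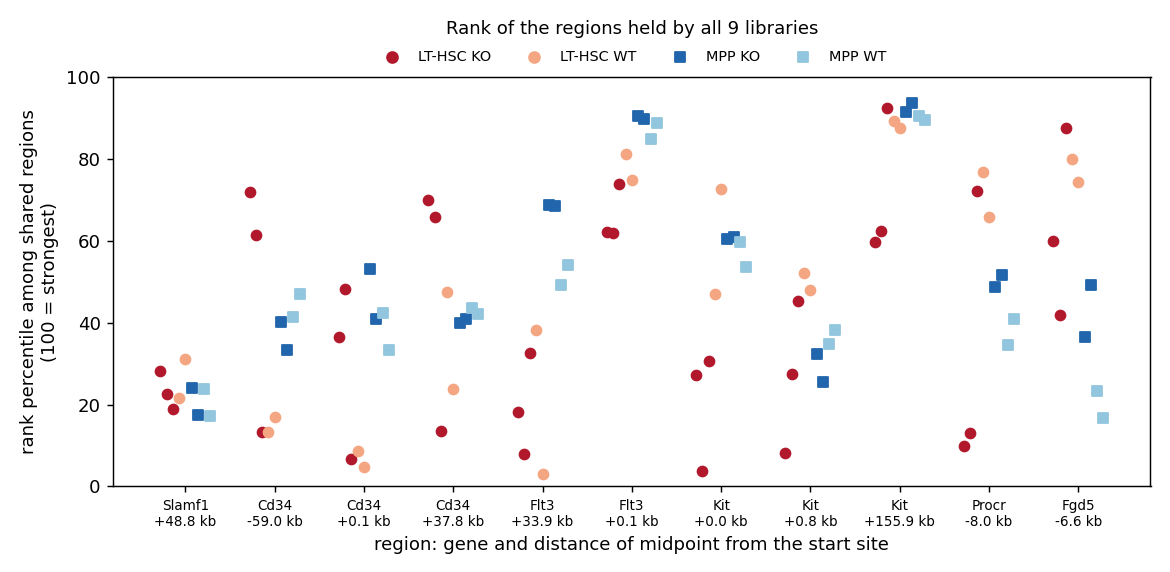
Rank percentile (y axis, 100 is the strongest) of the 11 marker gene regions held by all 9 libraries, among the 13908 regions so held. Circles are LT-HSC and squares MPP libraries, in the order KO then WT. The Flt3 start site region separates the cell types (61.8 to 81.3 against 84.9 to 90.6), and the Procr region splits the LT-HSC libraries into 9.9 and 13.1 (KO 1, KO 2) and 65.9 to 76.7 (the others).

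The second question of the series is what loss of the retinoid X receptors changes. In MPPs all 4 libraries held 9 Cd34 regions, and KO and WT counts overlapped or touched at Flt3 (12 and 11 against 12 and 11), Cd48 (7 and 7 against 7 and 6) and Kit (14 and 17 against 16 and 16). Of the 76 regions, 2 were held by both KO and neither WT MPP library (2.4% of all analysed regions), at Kit (−71.09 kb) and Flt3 (20.68 kb). Another 3 were held by both WT and neither KO MPP library (2.92% of all), at Kit 14.67 kb, Flt3 48.37 kb and Fgd5 84.74 kb downstream. These counts of 76 are 2.63% and 3.95%, near the shares of all regions. The Kit region 14.73 kb beyond the gene was strong in both WT and neither KO MPP library, the only such change in strength among the 76 (0.928% of all regions). With 2 libraries a side no permutation test can reach p under 0.05, and limma called 0% of shared regions between KO and WT MPPs (0.539% at an unadjusted p under 0.05, none of them at these genes). That fit shares 1 spread over the 4 groups, and the more variable LT-HSC libraries enter it. At the Cd34 region at 37.8 kb, for example, the SD of rank percentiles was 25.0 in LT-HSCs and 1.6 in MPPs. The 0% therefore does not show that MPPs were unchanged.

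In LT-HSCs no region of the 8 genes was present in 3 KO and 0 WT libraries (1.26% of all regions), or in 2 WT and 0 KO libraries (0.0334%). The larger division was between KO 1 and KO 2 and the other 3 LT-HSC libraries. Of the 76 regions, 4 were held by KO 4, WT 2 and WT 3 and by neither KO 1 nor KO 2 (2.14% of all regions), 2 at Procr, 1 at Kit and 1 at Cd48. None had the reverse pattern (0.568% of all). Among strong peaks the same division held for 5 regions, 2 at Procr, 2 at Kit and 1 at Flt3 (2.55% of all), and its reverse for 2 at Cd34 (2.81% of all).

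With all 9 libraries, normal scores of ranks by −log10 q and no replicate block, no genotype test passed. The stratified exact test of presence could be run on 1 region of these genes, Kit at 14.67 kb (exact p = 0.233), and called 0% of 1565 regions (2.49% at an unadjusted p under 0.05). On shared regions limma called none by genotype over both cell types (0%, 10.7% at an unadjusted p under 0.05) or within LT-HSCs (0%, 24.9%), and the interaction of genotype with cell type called 0% (8.14%). Within LT-HSCs the largest differences, KO minus WT, were −1.23 ± 0.39 at the Kit start site (SE, limma adjusted p = 0.116), −1.18 ± 0.48 at Procr (adjusted p = 0.175) and 0.95 ± 0.43 at the Cd34 region at −58.97 kb (adjusted p = 0.206). At the Kit start site KO 1, KO 2 and KO 4 ranked at 27.1, 3.8 and 30.6, all below WT 2 and WT 3 at 46.9 and 72.7, while the MPP libraries ranked at 60.4 and 60.9 (KO) and 59.8 and 53.6 (WT). How often shared regions order the LT-HSC libraries this way was not computed, and the region was picked for its large difference. At Cd34 and Procr KO 4 lay near the WT libraries instead: the Cd34 ranks were 72.0 and 61.5 in KO 1 and KO 2, and 13.3, 13.3 and 17.0 in KO 4, WT 2 and WT 3. Leaving out KO 4 sets KO 1 and KO 2, which stood apart from the other LT-HSC libraries, against WT 2 and WT 3. Genotype and that division cannot be told apart there. The setting is detailed because, of those that left out 1 library, it gave the most genotype calls. Without LT-HSC KO 4, limma called 8 of the 11 regions within LT-HSCs, in a fit that called 45.4% of all shared regions. The 3 at Cd34 were higher in KO, by 1.47 ± 0.19, 1.32 ± 0.22 and 0.85 ± 0.23 (SE, adjusted p = 0.00109, 0.00239 and 0.0169). Lower were Procr, by −1.78 ± 0.19 (SE, limma adjusted p = 0.000683), 3 at Kit, and Fgd5, by −0.73 ± 0.22 (adjusted p = 0.0292). KO 1 and KO 2 also had the lowest correlations with the MPP libraries (0.401 to 0.446), and the part of this in the genotype differences was not tested. By genotype, numbers of strong regions per gene gave exact permutation p from 0.15 to 0.7 for the 7 genes tested, none called (0% of 12853 genes, 0.405% at an unadjusted p under 0.05).

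Related genes were read for comparison. The 7 SLAM family neighbours had 51 regions, of which 25.5% were present in all 4 MPP and 0 of 5 LT-HSC libraries and none the other way round, led by Cd244a and Cd84 with 3 each. The 13 Ly6 neighbours had 42 regions, with 31.0% of the MPP kind and 1 LT-HSC region at Ly6c2, which also had 4 of the MPP kind. The 22 other stem cell markers had 227 regions, with 11.5% of the MPP kind, led by Alcam and Itgb3 (4 each), and 2 of the LT-HSC kind. The 10 ligands and related receptors, among them Kitl and Flt3l, had 95 regions, with 15.8% and none. The shares over all analysed regions were 17.3% and 0.24%.

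Markers of other blood and vascular cell types also had regions. In lists of equal length the 26 regions of myeloid markers included 3 to 4 strong ones in LT-HSC and 8 to 9 in MPP libraries, the 21 of B cell markers 3 to 4 and 6 to 7, and the 13 of T cell markers 1 and 2. Megakaryocyte markers (9 regions) had 4 to 7 and 3 to 6, erythroid markers (15) 5 to 6 and 4 to 5, endothelial markers (47) 6 to 9 and 7 to 9, mast cell markers (9) 1 to 4 and 0, and the common lymphoid marker Il7r (3) 0 to 1 and 1. The myeloid, B and T cell counts did not overlap between cell types and were higher in MPPs, as were the Flt3 counts. The SLAM family neighbours (4 to 6 strong regions in LT-HSCs, 7 to 9 in MPPs) did likewise. Mast cell counts did not overlap either, with LT-HSCs higher. How often lists of other genes separate in this way was not computed. The part of the myeloid, B and T cell counts in the Flt3 result was not tested.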

How the data were processed

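ATAC-seq measures accessible DNA by insertion of sequencing adapters with the Tn5 transposase. The authors deposited 1 narrowPeak list per library (22690 to 86353 peaks). Peaks were called with MACS2 2.1.1 on mm10, per the submitters' processing notes. Those notes list Bowtie2 and cutadapt 1.7 among other tools, with no roles. The deposited values are the fold enrichment (a ratio), the −log10 of the p-value and q-value and a display score. No read counts per library were used here, so the depth of each library is unknown. The sources used here do not state Tn5 shifting or duplicate filters.

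Peaks overlapping by 1 bp were merged. Presence was tested between cell types by Fisher's exact test (regions held by 3 to 6 libraries) and between genotypes by a stratified exact test. Ranks by −log10 q among regions held by all 9 libraries were turned into normal scores and tested with limma 3.58.1 (R 4.3.3), with 4 groups sharing 1 spread. A unit of difference is 1 SD over shared regions. Counts of strong regions per gene (present in at least 3 libraries) were tested by exact permutation. All tests were two-sided and Benjamini-Hochberg adjusted over the whole table, with adjusted p under 0.05 called. They were also run on simulated data with planted differences. Those data did not copy the division among the LT-HSC libraries, so they do not give the error rates of the tests here. Genes were 20665 protein-coding genes of RefSeq GRCm38.p6.

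Text names all 8 genes and, of their regions, those separated by cell type or genotype, those at start sites, those called by rank and the strongest, and up to 2 genes per comparison list. Regions named for splitting LT-HSC KO 1 and KO 2 from the others, or for a contrast between cell types that did not pass, were chosen after their values were seen. Members and lists were chosen with earlier results of these data known. No genome sequence was used, so the bases under peaks are not shown.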

Additional observations from a re-analysis of the deposited data

Results flagged for a closer look

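Each value below stood apart from the other libraries of its cell type by a gap test at the 95% level; 50 sets of libraries were examined, 11 were picked out, and chance picks out about 1 in 20. Most are small counts in which 1 library differs from others that tie. The gap test flags any such difference, even of 1, so the 95% level does not hold for these counts. The 11 of 50 can therefore not be set against 1 in 20. Among LT-HSC libraries, WT 3 had 2 strong Slamf1 regions (the others 3) and 1 strong Cd48 region (the others 0). Among MPP libraries, WT 2 had 0 strong Slamf1 regions (the others 1), held 6 Cd48 regions (the others 7), had 1 strong Fgd5 region (the others 3), held 0 Ly6a regions (the others 1) and ranked the Kit start site at percentile 53.6 (the others 59.8 to 60.9). MPP WT 1 had 2 strong Cd48 regions (the others 1) and 1 strong Procr region (the others 2). MPP KO 1 had 3 strong Kit regions (the others 4) and held 6 Procr regions (the others 5).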

How the results depend on the processing

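The 13 regions called for presence were each held by every library of 1 cell type and none of the other, so leaving out libraries could not change that contrast and says nothing of its stability. Lists of equal length could test 1 of the 13, at Slamf1, which was called. In lists of equal length 3 regions of the 8 genes were called for MPPs in place of 12. Over all regions tested 32.4% were called for presence, and 57.7% without LT-HSC KO 1 and KO 2, where fewer regions could be tested. Leaving out 1 library gave 12 to 18 MPP calls and 1 LT-HSC call at the 8 genes, and 51.3% to 90.4% over all regions. Rank calls between cell types moved with the libraries: leaving out 1 gave 0 to 2 (LT-HSC) and 0 to 4 (MPP) at the 8 genes, and 15% to 51.0% over all shared regions in place of 29.3%. The MPP rank calls were 0 without any 1 MPP library or without LT-HSC WT 3. Ranking by fold enrichment ended all 3 MPP calls, turned the Flt3 start site region to 0.21, and gave 1 MPP call at another region, Cd34 at −58.97 kb (−1.0, limma adjusted p = 0.0172). Without LT-HSC KO 1 and KO 2 there were 5 and 6 calls and 47.9% over all shared regions. Genotype rank calls were 0 with all libraries, normal scores of ranks by −log10 q and no replicate block. Without 1 library they ranged from 0 to 2 (KO higher), 0 to 2 (WT higher) and 0% to 22.0% over all shared regions. Within LT-HSCs these ranges were 0 to 3, 0 to 5 and 0% to 45.4%, and for the interaction 0 to 2, 0 to 3 and 0% to 24.6%, each highest without LT-HSC KO 4. Within LT-HSCs 0.906% were called by fold enrichment, 0.892% on percentile ranks and 1.22% without LT-HSC KO 1 and KO 2, where 0.0195% were called over both cell types. The cause was not tested. Presence by genotype could not be tested without any 1 LT-HSC KO library, or without KO 1 and KO 2 together. No region could then reach p under 0.05 in the exact test.

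Replicate numbers are shared across groups, but deviations of same-numbered libraries correlated at −0.068 to 0.035 over 9 pairs, so the numbers were not taken to pair libraries. With the replicate block, rank calls were 2 (LT-HSC), 5 (MPP) and 49.6% over all shared regions by cell type, 1 (KO), 1 (WT) and 13.0% by genotype, 2, 4 and 33.0% within LT-HSCs, and 1, 4 and 18.3% for the interaction. A missing peak in a short list does not show closed chromatin.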
